A study of Mus musculus with 6 samples.

Results

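The lysyl oxidase family of the mouse has 5 genes, Lox and Loxl1 to Loxl4. They were taken by symbol from the count table, where each had 1 line among 29703 gene symbols. RNA was sequenced from lungs of balb/c mice, taken at D14 or at D0 after K7M2 cells had been implanted orthotopically, as the labels put it. K7M2 is an osteosarcoma line of the same strain that forms lung metastases. Each day had 3 libraries, D14 replicates 1 to 3 and D0 replicates 1 to 3, all labelled with the same implantation. Whether each library stands for a single animal is not given, though the titles call them biological replicates, and the tests rest on the spread among these libraries. D14 lungs without implanted cells are not analysed here, so effects of tumour, surgery, age and collection day cannot be told apart.

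Lysyl oxidases are secreted, copper-dependent amine oxidases. They turn lysine side chains of collagen and elastin into aldehydes, which then condense into the crosslinks that stiffen collagen fibrils and make elastic fibres resilient. Lox and Loxl1 carry a propeptide that is cut off outside the cell, while Loxl2, Loxl3 and Loxl4 carry scavenger receptor cysteine-rich domains. In earlier work on other tumours in mice, Lox released by hypoxic cancer cells was tied to matrix changes in the lung before metastasis. The series title concerns molecular change in the lung while a pre-metastatic niche forms, and here D14 is set against D0 for the RNA of these enzymes.

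The catalytic part of every member holds a copper-binding site with 4 histidines, and its codons show how far the members are alike. The coding sequences of 4 members are given here 5′ to 3′ from GENCODE transcripts on GRCm38, with the histidine codons in capitals.
Loxl1: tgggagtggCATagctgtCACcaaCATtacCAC
Loxl2: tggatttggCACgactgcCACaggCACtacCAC
Loxl3: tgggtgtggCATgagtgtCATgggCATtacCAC
Loxl4: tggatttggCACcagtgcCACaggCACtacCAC
The Loxl1 site lies at chr9:58293720-58294381 on the minus strand, over exons 3 and 4 of 7. The Loxl2 site lies at chr14:69682316-69689037 on the plus strand, over exons 10 and 11 of 14. The Loxl3 site lies at chr6:83049995-83050125 on the plus strand, over exons 10 and 11 of 14. The Loxl4 site lies at chr19:42598807-42599899 on the minus strand, over exons 11 and 12 of 15. An exon junction follows base 23 of the 33 in each of the 5 members, Lox included, so a read over the junction within the site spans an intron in all of them. Loxl2 and Loxl4 shared 31 of the 33 bases, and the other pairs of the sequences shown shared 21 to 25. Over whole transcripts the longest run of identical bases between members was 32, between Lox and Loxl1, and no stretch of 50 bases was shared by any of the 10 pairs.

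All 5 genes are protein-coding in GENCODE. On GRCm38, Lox lies on chromosome 18 from 52516067 to 52529867, Loxl1 on chromosome 9 from 58287738 to 58313186 and Loxl2 on chromosome 14 from 69609068 to 69695834. Loxl3 lies on chromosome 6 from 83034173 to 83052562 and Loxl4 on chromosome 19 from 42593982 to 42612813. Loxl3 shares 535 exon bases with Htra2, a mitochondrial protease gene on the opposite strand, and Loxl2 shares 301 with the antisense gene Gm27177. The strand setting of the counting is not given in the sources used here, so reads in these stretches cannot be told apart. Htra2 had 296 to 335 counts at D14 and 410 to 481 at D0, more than Loxl3 in every library. Gm27177 had 11 to 18 counts at D14, and 130, 15 and 11 at D0.

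Lox and Loxl4 had higher RNA levels in all 3 D14 lungs than in any D0 lung, on average about 2.23 times and 3.94 times the D0 mean. Loxl2 was also higher without overlap, by a smaller ratio of 1.34, while Loxl1 and Loxl3 had overlapping ranges. All 5 passed the filter on low counts. With edgeR's quasi-likelihood test 0 of the 5 passed an adjusted p of 0.05 over all 17686 tested genes, of which it called 0.0339% (0.017% higher and 0.017% lower at D14). At an unadjusted p under 0.05 stood 3 members, all higher at D14, where 12.6% of all tested genes did (5.48% higher and 7.09% lower). DESeq2 on the same counts called 1 member, Lox, as higher, beside 1.68% of the genes it gave an adjusted p (1.03% higher and 0.65% lower), and limma-voom called 0. The ranges of CPM, counts scaled for library size, did not overlap in 3 of 5 members, all higher at D14. Over all tested genes this held for 21.6%, with 10.9% higher and 10.7% lower. The family's median log2 fold change was 0.42 with 4 of 5 positive, against −0.03 and 46.9% positive over all tested genes.

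**Figure D1:**
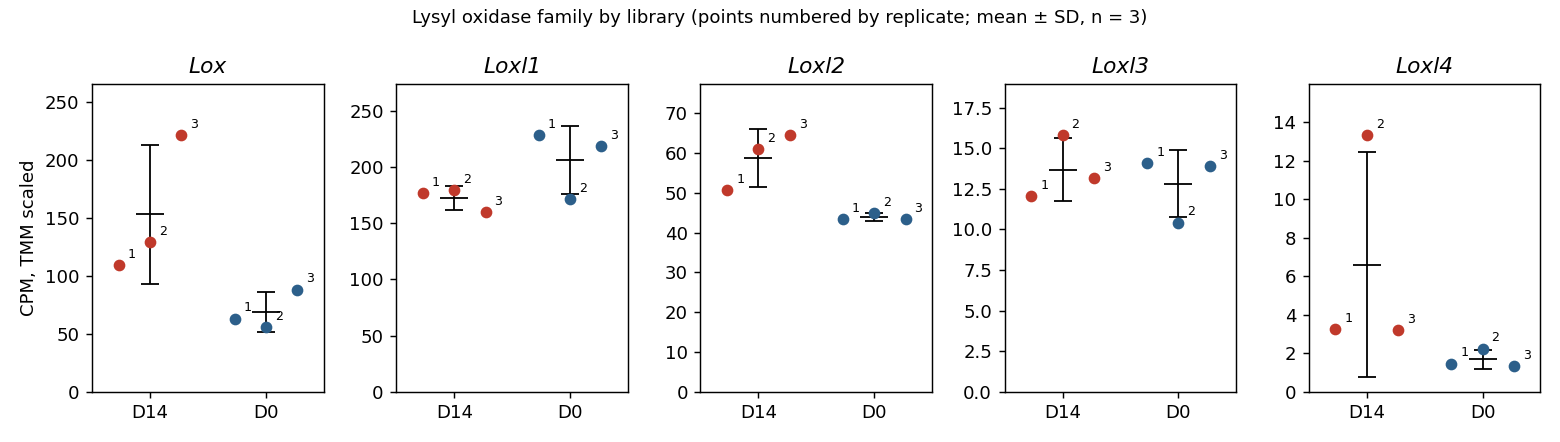
Level of each family member in each library, in CPM scaled with TMM factors, with 1 panel per gene, its own axis from 0, points numbered by replicate, and black bars for mean ± SD (n = 3). Lox, Loxl2 and Loxl4 have their 3 D14 points above all D0 points, with single high D14 points of 221 CPM for Lox and 13.3 CPM for Loxl4.

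Lox, the founding member, which crosslinks collagen and elastin, had 109, 129 and 221 CPM at D14 replicates 1 to 3, against 62.9, 55.5 and 88.0 CPM at D0 replicates 1 to 3. The lowest D14 lung was above the highest D0 lung, and D14 replicate 3 stood well above the other D14 lungs. The means were 153 ± 60.0 CPM at D14 and 68.8 ± 17.04 CPM at D0 (SD, n = 3 each). The log2 fold change was 1.15 (SE 0.30; adjusted p = 0.347, edgeR), and 1.54% of tested genes had a smaller p. Lox was the member closest to a call, and DESeq2 called it at 1.17 (SE 0.33; adjusted p = 0.0278). Over the other alternatives its adjusted p ran from 0.216 to 0.725. Without D14 replicate 3 the log2 fold change was 0.79, and without D0 replicate 3, a library that stood apart from the rest, it was 1.37.

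Loxl1, which is needed for elastic fibre upkeep in the mouse, was the most abundant member. It had 177, 179.8 and 160.2 CPM at D14, against 229, 171 and 219 CPM at D0. All D14 lungs were below 2 of the D0 lungs, and D0 replicate 2 lay among the D14 values. The means were 172 ± 10.5 CPM at D14 and 206 ± 30.6 CPM at D0 (SD, n = 3 each). Its log2 difference was −0.26 (SE 0.16; adjusted p = 0.496, edgeR), which stayed negative in each of the alternatives tried.

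Loxl2, which oxidises type IV collagen of basement membranes, had 50.7, 61.0 and 64.5 CPM at D14, against 43.3, 45.0 and 43.3 CPM at D0. The D0 lungs were nearly alike and all D14 lungs lay above them. The means were 58.8 ± 7.20 CPM at D14 and 43.9 ± 0.957 CPM at D0 (SD, n = 3 each). Its log2 fold change was 0.42 (SE 0.14; adjusted p = 0.364, edgeR).

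Loxl3, an enzyme needed for palate and spine development in the mouse, had 12.05, 15.8 and 13.1 CPM at D14, against 14.1, 10.4 and 13.9 CPM at D0. The groups overlapped, with both the highest and the second lowest lung at D14. The log2 fold change was 0.09 (SE 0.20; adjusted p = 0.847, edgeR), and it was −0.03 without D0 replicate 2 and −0.02 without D14 replicate 2.

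Loxl4, the least abundant member, had 56, 209 and 50 counts at D14, against 25, 35 and 19 at D0. In CPM these were 3.24, 13.3 and 3.20 at D14, against 1.45, 2.24 and 1.33 at D0. D14 replicate 2 held more Loxl4 counts than the remaining 5 libraries together, and the other D14 lungs still lay above the D0 lungs. The means were 6.59 ± 5.83 CPM at D14 and 1.67 ± 0.490 CPM at D0 (SD, n = 3 each), so the SD at D14 was 88.5% of the mean. The log2 fold change was 1.97 (SE 0.62; adjusted p = 0.364, edgeR), and it was 0.94 without D14 replicate 2.

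**Figure D2:**
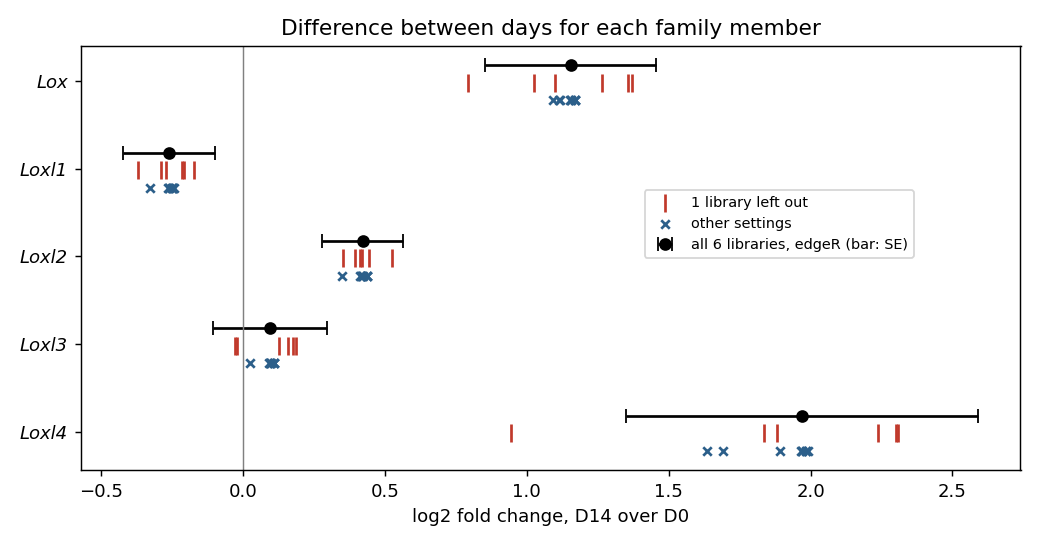
The log2 fold change of D14 over D0 for each family member, with the value from all 6 libraries and its SE in black, values with 1 library left out in red and values with other settings in blue. Loxl4 spans 0.94 to 2.31 with 1 library left out, Lox 0.79 to 1.37, and Loxl3 lies on both sides of 0.

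Loxl4 is the 1 member of the 5 whose promoter the RefSeq table holds, and it is shown for that reason alone. The 300 bases lie at chr19:42612757-42613056 of GRCm38.p6 on the minus strand.
Loxl4: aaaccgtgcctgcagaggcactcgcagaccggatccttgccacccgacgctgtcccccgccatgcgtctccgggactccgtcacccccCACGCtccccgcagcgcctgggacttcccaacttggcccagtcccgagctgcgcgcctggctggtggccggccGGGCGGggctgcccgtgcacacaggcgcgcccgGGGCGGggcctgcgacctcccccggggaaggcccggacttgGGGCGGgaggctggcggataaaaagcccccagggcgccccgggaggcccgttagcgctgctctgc
Capitals mark the motifs found when both strands were searched, and none of these matches overlapped. The hypoxia response core GCGTG matched 1 time, on the reverse strand, and 32.4% of all 32851 promoters of this length hold it. The GC box GGGCGG matched 3 times and is held by 35.7% of promoters. The hypoxia response core ACGTG, the AP-1 site TGACTCA and the TATA box TATAAA had no match in this window, and 19.6%, 5.20% and 13.6% of promoters hold them. G and C made up 75% of these bases, a share that 3.91% of all promoters reach, where the median promoter has 52.7%.

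Levels were compared between genes per kilobase of exon. Loxl1 stood highest in every library, followed by Lox, Loxl2, Loxl3 and Loxl4. Loxl1 had 52.2 ± 3.19 CPM per kilobase at D14 and 62.5 ± 9.28 at D0, and Lox had 32.0 ± 12.6 at D14 and 14.4 ± 3.57 at D0 (SD, n = 3 each). In D14 replicate 3 these neighbours were nearly level, at 46.3 for Lox and 48.6 for Loxl1. Loxl2 had 10.9 ± 1.33 CPM per kilobase at D14 and 8.12 ± 0.177 at D0. Loxl3 had 2.97 ± 0.421 at D14 and 2.78 ± 0.449 at D0, and Loxl4 had 1.56 ± 1.38 at D14 and 0.397 ± 0.116 at D0. Loxl3 and Loxl4 overlapped at D14, since Loxl4 reached 3.16 in replicate 2, and not at D0.

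The sum of the 5 members was 89.1, 99.4 and 110.5 CPM per kilobase at D14, against 93.9, 74.7 and 96.1 at D0. These sums overlapped between the days. Lox made up 25.6%, 27.2% and 41.9% of the sum at D14, against 14.02%, 15.5% and 19.2% at D0. Loxl1 made up 60.1%, 54.8% and 44.0% at D14, against 73.8%, 69.6% and 69.0% at D0. For both genes the shares of the days did not overlap. Shares of 1 sum are bound together, so a higher share of Lox lowers that of Loxl1, whose own level overlapped between the days. The share of Loxl2 was 10.5% to 11.4% at D14 and 8.34% to 11.1% at D0, with overlap. Per kilobase, Lox was at 0.425, 0.495 and 0.953 times the level of Loxl1 at D14, against 0.190, 0.223 and 0.278 times at D0. The D14 ratios all lay above those at D0, and they rest on the same levels as the shares. Differences in level between members within a lung were not tested.

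**Figure D3:**
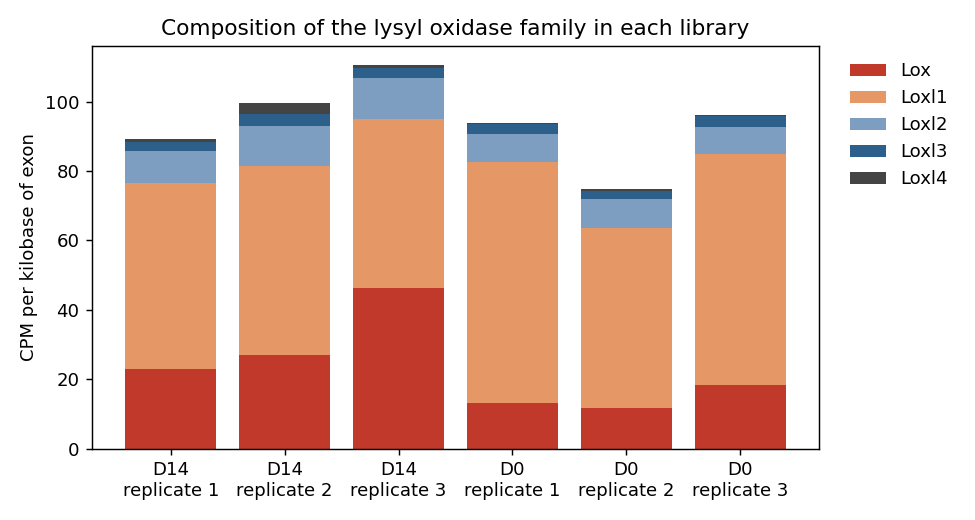
Stacked bars of the 5 family members in each library, in CPM per kilobase of exon, from Lox at the bottom to Loxl4 at the top. Bars total 89.1 to 110.5 at D14 and 74.7 to 96.1 at D0, and the Lox part is larger in each D14 library than in any D0 library.

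In whole lung, fewer cells of a type and less RNA per cell cannot be told apart, so markers of the cells that could hold these RNAs were read beside the family. Fibroblasts, a main source of crosslinking enzymes, had 10 of 10 markers measured, with a summed level of 1871 to 2350 CPM at D14 and 1879 to 1947 CPM at D0. These markers differed in direction, with 4 of 10 positive. Without overlap, Pdgfra was higher and Tcf21 lower at D14, where 21.6% of all tested genes had no overlap. Smooth muscle and pericyte markers, also 10 of 10, summed to 843 to 933 CPM at D14 and 685 to 893 CPM at D0. Mesothelial markers, 6 of 6, summed to 660 to 786 CPM at D14 and 562 to 1513 CPM at D0. The sums of those 3 lists overlapped between the days. Endothelial markers, 10 of 10, summed to 6195 to 6628 CPM at D14 and 2744 to 5496 CPM at D0, without overlap. Their part in the levels of Lox, Loxl2 and Loxl4 was not tested.

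Summed markers of fat and muscle varied widely between libraries. Adipocyte markers, 8 of 8, summed to 60.5, 152 and 1152 CPM at D14 replicates 1 to 3, against 65.6, 343 and 952 CPM at D0 replicates 1 to 3. Within each day, replicate 3 had the highest adipocyte sum and also the most Lox. D14 replicates 1 and 2, with less adipocyte RNA than D0 replicates 2 and 3, had more Lox than these. Skeletal and cardiac muscle markers, 10 of 10, summed to 353, 383 and 543 CPM at D14, against 208, 418 and 951 CPM at D0. Replicate 3 was the highest of its day in this sum too. The highest of all was D0 replicate 3, where Lox was above the other D0 lungs and below every D14 lung. Of the defining markers, Lep had no count in D0 replicate 1, Myh4 none in D14 replicates 1 and 3, and Myh1 none in D14 replicate 3. Within the muscle list 6 of 10 genes were positive, with a median log2 fold change of 0.51. There edgeR called 0, with 2 higher and 1 lower at an unadjusted p under 0.05. Over all tested genes 12.6% stood at such a p (5.48% higher and 7.09% lower), and 21.6% had ranges that did not overlap. In the muscle list, near that share, the ranges overlapped between the days for 8 of the 10. The other 2, both cardiac and higher at D14, were Myh6, a myosin heavy chain, and Nppa, the atrial natriuretic peptide. Myh6 had 123.3, 88.8 and 207 CPM at D14, against 53.1, 50.1 and 39.3 CPM at D0, and Nppa had 7.24, 5.74 and 79.2 CPM at D14, against 1.40, 2.24 and 2.39 CPM at D0. The cardiac genes Tnnt2, Myl7 and Myl4 stood at log2 fold changes of 0.66 (SE 0.35), 0.69 (SE 0.41) and 0.55 (SE 0.40), with overlap. Myl7 had 59.9, 39.0 and 53.3 CPM at D14, against 13.8, 48.2 and 32.2 CPM at D0. Of the genes of skeletal muscle, or shared with heart, Acta1, Ckm, Mb and Myh1 stood at −2.53 (SE 1.42), −2.03 (SE 0.80), −1.61 (SE 0.74) and −1.44 (SE 1.49), all 4 highest in D0 replicate 3, and Myh4 stood at 0.48 (SE 1.45). The part of fat, heart and skeletal muscle in the Lox level was not tested.

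Markers of osteoblasts, the lineage of the implanted cells, summed to 441 to 529 CPM at D14 and 468 to 518 CPM at D0, with 8 of 10 genes in the table and 5 tested. Most of that sum was Col1a1, which fibroblasts also make. The osteoblast-restricted genes Bglap, Bglap2 and Sp7 had at most 2 counts in a D14 library and at most 8 in a D0 library. In a library with no count, 3 counts would correspond to 0.173 to 0.202 CPM, and this limit reflects counting error alone.

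The partners and substrates of the enzymes were read as 8 lists with 106 genes, of which 105 were tested. With edgeR 0 of these genes passed, 9 higher and 3 lower stood at an unadjusted p under 0.05, and limma-voom called 0. These 12 are 11.4% of the genes tested in the lists, beside 12.6% of all tested genes (5.48% higher and 7.09% lower). By list the share was 25% for Snail, 21.4% for propeptide processing, 18.8% for TGF-beta, 15.8% for hypoxia and 12.5% for collagen folding. It was 0% for substrates, elastic fibre assembly and copper supply. Each list holds few genes, and these shares were not tested. DESeq2 called 4, 3 higher and 1 lower at D14, where over all genes with an adjusted p it called 1.68% (1.03% higher and 0.65% lower). Among them were Thbs1 and Skil, both higher, and Colgalt1, lower, and of these Skil and Colgalt1 are named after their values were seen. The median log2 fold change over the lists was 0.07.

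The collagens and elastin that the family crosslinks had 6 of 9 members positive, with a median log2 fold change of 0.11, and 0 at an unadjusted p under 0.05. Eln, the elastin gene, had 558, 598 and 788 CPM at D14, against 1108, 336 and 588 CPM at D0, with the highest and the lowest lung both at D0. Its log2 fold change was −0.06 (SE 0.40; adjusted p = 0.950, edgeR). Fibril-forming Col1a1, Col1a2 and Col3a1 stood at −0.02 (SE 0.15), 0.11 (SE 0.15) and −0.13 (SE 0.19). The basement membrane chains Col4a1 and Col4a2, the most abundant of the list per kilobase, stood at 0.51 (SE 0.25) and 0.43 (SE 0.25), with overlapping ranges.

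Genes of elastic fibre assembly had 4 of 13 members positive, a median of −0.08, and 0 at an unadjusted p under 0.05. Without D0 replicate 3 that median was 0.07. Fbln5, the fibulin that brings Loxl1 to elastic fibres, had 257, 134 and 107 CPM at D14, against 225, 323 and 276 CPM at D0. Only D14 replicate 1 reached into the D0 range, and the log2 fold change was −0.73 (SE 0.33; adjusted p = 0.411, edgeR). Efemp2, the fibulin that binds Lox, had 47.1, 41.8 and 32.3 CPM at D14, against 45.5, 53.8 and 63.3 CPM at D0, and its log2 value differed by −0.42 (SE 0.20; adjusted p = 0.416, edgeR). Mfap4, Efemp1 and Ltbp4, the most abundant of this list per kilobase, stood at −0.10 (SE 0.21), −0.25 (SE 0.29) and 0.21 (SE 0.19).

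Genes that process the propeptides of Lox and of collagen, or hold the protease near them, had 6 of 14 tested members positive and a median of −0.04, and 3 higher at an unadjusted p under 0.05. Bmp1, the protease that cuts the Lox propeptide, had 74.6, 74.7 and 67.5 CPM at D14, against 75.9, 89.1 and 86.6 CPM at D0. Its D14 range was just below that of D0, and the log2 difference was −0.21 (SE 0.14; adjusted p = 0.501, edgeR). Pcolce and Pcolce2, enhancers of procollagen processing, stood at −0.15 (SE 0.17) and −0.05 (SE 0.16). Fibronectin, Fn1, and periostin, Postn, matrix proteins that bind Bmp1, stood at 0.70 (SE 0.25; adjusted p = 0.364) and 0.67 (SE 0.28; adjusted p = 0.390). Postn was 276 to 279.9 CPM in the D14 lungs, against 108 to 243 CPM in the D0 lungs. Thbs1, thrombospondin 1, had 484, 888 and 356 CPM at D14, against 77.6, 139 and 136 CPM at D0, with every D14 lung far above D0. Its log2 fold change was 2.29 (SE 0.39; adjusted p = 0.189, edgeR), and DESeq2 called it (adjusted p = 7.86e-07).

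Enzymes that hydroxylate and fold collagen had 9 of 16 members positive and a median of 0.01, with 1 higher and 1 lower at an unadjusted p under 0.05. The abundant P4hb, Serpinh1 and Ppib, a prolyl hydroxylase subunit and 2 helpers of collagen folding, stood at −0.08 (SE 0.18), 0.13 (SE 0.24) and −0.31 (SE 0.20). Colgalt1, which adds galactose to collagen hydroxylysine, had 58.0, 60.8 and 46.4 CPM at D14, against 76.5, 139 and 130.1 CPM at D0. All D14 lungs lay below D0, and the log2 difference was −1.07 (SE 0.25; adjusted p = 0.326, edgeR; adjusted p = 0.0159, DESeq2). Copper supply genes had 8 of 12 members positive, a median of 0.20, and 0 at an unadjusted p under 0.05. Of these genes 3 were higher and 2 lower at D14 without overlap, where 10.9% and 10.7% of all tested genes were. Atp7a, the pump that loads copper into secreted enzymes such as Lox, had 35.0, 39.0 and 41.8 CPM at D14, against 27.6, 27.1 and 7.72 CPM at D0. The ranges did not overlap, with 1 low D0 lung, replicate 3, and the log2 fold change was 0.89 (SE 0.42; adjusted p = 0.421, edgeR). Atox1, the copper chaperone, and the metallothioneins Mt1 and Mt2 stood at −0.44 (SE 0.26), 0.83 (SE 0.49) and 0.77 (SE 0.60).

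Among regulators, Hif1a, a hypoxia-inducible factor that raises Lox, had 92.9, 115 and 101 CPM at D14, against 73.7, 81.9 and 72.7 CPM at D0. The ranges did not overlap, and the log2 difference was 0.44 (SE 0.14; adjusted p = 0.364, edgeR). The hypoxia list had 11 of 19 members positive and a median of 0.13, with 2 higher and 1 lower at an unadjusted p under 0.05. Epas1, Vegfa and Ldha, its most abundant members per kilobase, stood at 0.75 (SE 0.35), −0.28 (SE 0.18) and 0.13 (SE 0.20). TGF-beta regulators and targets had 10 of 16 members positive and a median of 0.13, with 3 higher at an unadjusted p under 0.05. Ccn2, Tagln and Acta2, its most abundant members per kilobase, stood at 0.41 (SE 0.27), −0.16 (SE 0.41) and −0.08 (SE 0.38). Skil, a feedback repressor, had 30.4, 29.1 and 26.3 CPM at D14, against 18.9, 15.3 and 8.71 CPM at D0, without overlap. DESeq2 gave it a log2 fold change of 1.01 (adjusted p = 0.0490), and edgeR an adjusted p of 0.347.

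The Snail factors, which Loxl2 and Loxl3 bind in human cells, were read with related factors and with epithelial and mesenchymal genes. The median of such a mixed list has no clear direction. That list had 6 of 8 members positive and a median of 0.28, with 1 higher and 1 lower at an unadjusted p under 0.05. Snai1 had 11.3, 9.63 and 9.74 CPM at D14, against 33.6, 17.6 and 10.7 CPM at D0. On the log2 scale it differed by −1.01 (SE 0.38; adjusted p = 0.373, edgeR). The ranges overlapped, since D0 replicate 3 was below D14 replicate 1. Vim, Cdh1 and Zeb1, the most abundant per kilobase, stood at 0.20 (SE 0.24), 0.03 (SE 0.14) and 0.56 (SE 0.29).

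**Figure D4:**
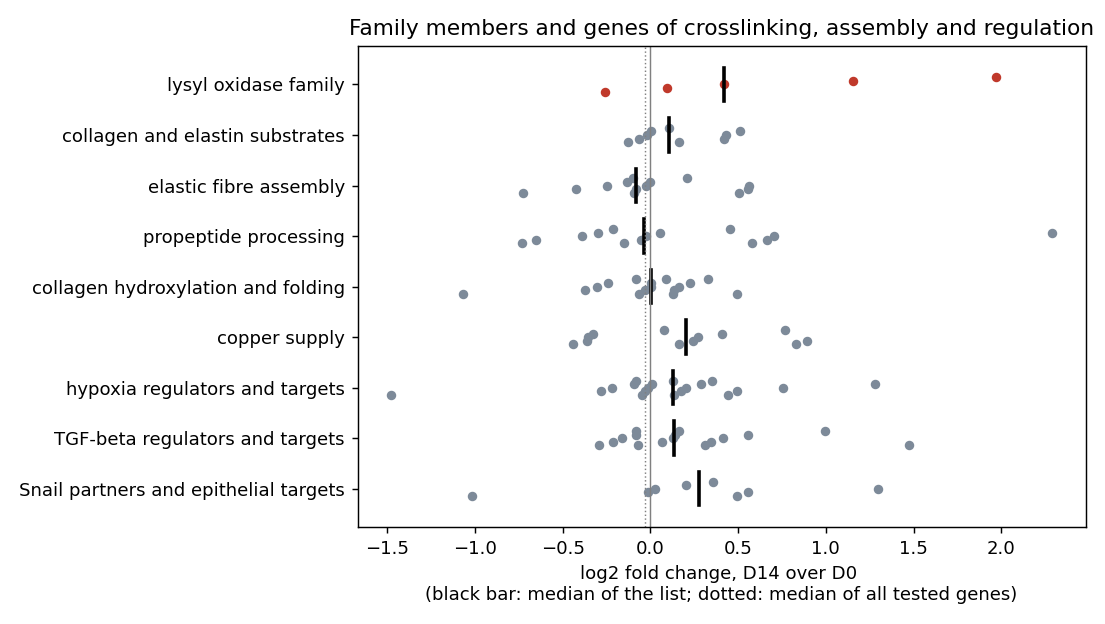
The log2 fold change of D14 over D0 for the 5 family members and for the tested genes of 8 lists, with 1 point per gene, black bars for list medians and a dotted line for the median of all tested genes. List medians run from −0.08 for elastic fibre assembly to 0.28 for the Snail list, and Lox and Loxl4 lie at 1.15 and 1.97.

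To see which genes followed each member, profiles of log2 CPM centred on their mean over the 6 libraries were compared by root mean square difference. The candidates were tested genes with a mean of at least 5 CPM, 12968 for each of Lox to Loxl3 and 12969 for Loxl4. Nearest to Lox were Adamts15 (0.21 log2 units), Actn2 (0.22) and Fkbp5 (0.23). Adamts15, a secreted proteoglycan-cutting protease, had 99.6, 134 and 163 CPM at D14, against 62.9, 47.3 and 61.5 CPM at D0, without overlap. Actn2, an alpha-actinin of striated muscle, had 7.53, 10.1 and 14.7 CPM at D14, against 4.48, 4.41 and 9.34 CPM at D0. Fkbp5, a glucocorticoid-induced co-chaperone, had 19.6, 17.9 and 31.3 CPM at D14, against 11.6, 11.9 and 13.97 CPM at D0. All 3 were highest in D14 replicate 3, as was Lox, which follows largely from choosing them by their likeness to Lox in these libraries.

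Nearest to Loxl4 were Fosb (0.38), Cyp26b1 (0.38) and Il1rl1 (0.48), all highest in D14 replicate 2. Fosb, an immediate early transcription factor, had 21.1, 82.4 and 23.6 CPM at D14, against 5.47, 8.82 and 6.60 CPM at D0. Cyp26b1, a retinoic acid hydroxylase, had 21.4, 74.3 and 29.2 CPM at D14, against 6.16, 17.5 and 6.81 CPM at D0. Il1rl1, the receptor for interleukin 33, had 22.1, 45.5 and 8.40 CPM at D14, against 6.63, 5.75 and 5.76 CPM at D0. Each had its 3 D14 values above all D0 values. They were chosen by likeness to Loxl4 in these same libraries, so this order and the shared peak follow largely from the choice.

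The members that varied less between libraries had closer neighbours, since the difference is not scaled by the spread of a gene. Small values between genes that varied little therefore do not show that they moved together. Nearest to Loxl2 were Serinc1 (0.02), Uso1 (0.04) and Cobll1 (0.04), a serine incorporator, a vesicle tether and a cordon-bleu-like protein. Nearest to Loxl1 were Enkd1 (0.04), Zcchc3 (0.05) and Tamm41 (0.05), and nearest to Loxl3 were Gstm2-ps1 (0.07), Ccdc86 (0.07) and Prim1 (0.07). Within the family the closest pair was Loxl1 and Loxl3 at 0.21, and the most distant was Loxl1 and Loxl4 at 1.17. Lox was 0.47 from Loxl2 and 0.94 from Loxl4.

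**Figure D5:**
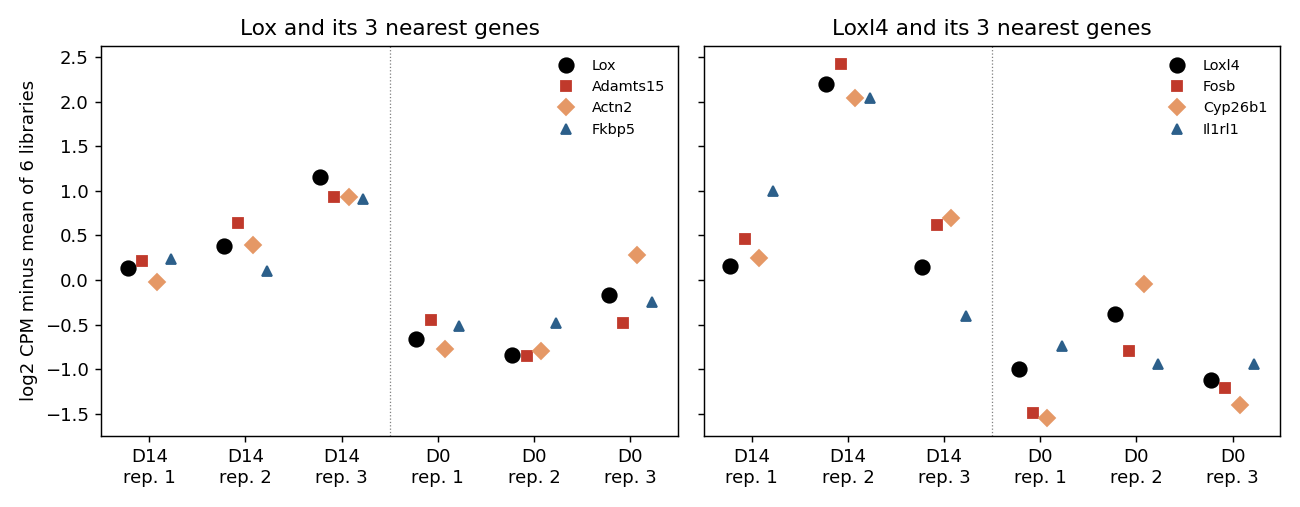
Log2 CPM minus the mean over 6 libraries for Lox (left) and Loxl4 (right) and the 3 genes with the nearest profile, by library, with D14 left of the dotted line and 1 symbol per gene. Lox and its neighbours peak in D14 replicate 3, and Loxl4 and its neighbours in D14 replicate 2. The neighbours were chosen by this likeness, so the shared peaks follow largely from the choice.

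The libraries held 16171595 to 17385006 counts at D14 and 14878101 to 16001097 at D0. The library of D0 replicate 3 was distant from the others, at 82.8 on a first principal component with 42.6% of variance, where the others lay between −41.5 and 15.7. In the labels the tissue is lung, but the text on RNA extraction speaks of BMDMs, a usual short form for cultured macrophages. Lung epithelial genes were high throughout, with Sftpc, a surfactant protein, at 12874 to 18300 CPM at D14 and 12446 to 34630 CPM at D0. Macrophage markers, 10 of 10, summed to 4592 to 5181 CPM at D14 and 4169 to 9790 CPM at D0. Most of that sum was Lyz2, which alveolar epithelium also makes, at 4216 to 4752 CPM at D14 and 3826 to 9277 CPM at D0. Next per kilobase came Cd68, at 30.6 to 34.2 CPM at D14 and 29.9 to 82.2 CPM at D0, and Csf1r, at 133 to 177 CPM at D14 and 144 to 155 CPM at D0. Across all genes, 6 passed with edgeR, 3 higher and 3 lower at D14.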

How the data were processed

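Lung RNA from 6 libraries was analysed, 3 at D14 and 3 at D0. TRIzol extraction and an NEB library kit are named per the labels' protocols. The tools listed are HISAT2 2.1.0, StringTie 1.3.4b, CASAVA 1.8 and edgeR, and the build is GRCm38, per the submitters' processing notes, which give no roles here. What the authors deposited are estimated counts by gene symbol without depth scaling, and every value used here was whole, so rounding changed none. Of 29757 lines, 4 were left out: 2 were empty (Tgfb1 and Tnf), and 2 displaced ones held values that are not whole. Where a symbol was repeated (50 lines), the line with the highest total kept it and the others stayed as lines of their own.

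Genes were tested with the two-sided quasi-likelihood F test of edgeR 4.0.16 (R 4.3.3), with robust estimation, TMM factors, filtering by filterByExpr and no covariate. P-values were adjusted by Benjamini-Hochberg over all tested genes, with a threshold of 0.05. The SE is the size of the log2 fold change divided by the square root of F. Log2 CPM used a prior count of 2. Alternatives were DESeq2 1.42.0, limma-voom 3.58.1, RLE or no factors, other filters, no robust estimation, summed repeats, a replicate block and each library left out. The edgeR step was tested on simulated counts with no outlying library, so a library set apart as D0 replicate 3 was not covered.

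The members and lists were chosen with earlier results of these data known. Named are the 5 members, a panel of 13 genes, the 3 most abundant genes per kilobase of each list, and the 3 nearest profiles of each member. Htra2 and Gm27177 are named for their overlap with members. Outside this rule, Skil, Colgalt1 and single genes of the marker lists are named, chosen after their values were seen. Exon lengths and positions come from GENCODE M21, promoters from RefSeq. With 3 libraries per day, a permutation test of 1 gene could not go below 0.1 and was not used. The values of 1 gene of the lists are not reported here.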

Additional observations from a re-analysis of the deposited data

How the results depend on the processing

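Of 75 refits of a family member, 72 kept its direction and its side of the threshold. Lox passed with DESeq2 (log2 fold change 1.17), so the count of family members was 1 there and 0 in all other settings. Loxl3 turned negative without D0 replicate 2 (−0.0287) and without D14 replicate 2 (−0.0210), so its values with 1 library left out ran from −0.0287 to 0.185. Over all genes the count of 6 became 274 with DESeq2 and 26 with no low count filter, and it ran from 0 (without any 1 of the D14 libraries) to 22 (without D0 replicate 3) with 1 library left out, with 3 and 1 without D0 replicates 1 and 2. With the replicate block the count was 0. Deviations from the day's mean correlated at 0.118, −0.0548 and −0.0972 between libraries of the same number, so the numbers are not taken as pairs. The medians of elastic fibre assembly, collagen folding and propeptide processing changed sign in 2, 6 and 2 of 15 settings. The elastic fibre median was 0.0724 without D0 replicate 3 and 0.00538 without D14 replicate 1. Level order per length was the same with the longest transcript. The low counts of Loxl4 and the 3 libraries per day limit precision.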
